A study of Mus musculus with 24 samples.

Results

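Peaks of histone H3 acetylated at lysine 27 (H3K27ac) that sit on active promoters were examined in neuronal nuclei of the mouse dentate gyrus. They are the peaks that the authors' file gives the ChromHMM state strong promoter, whose distance to a transcription start site (TSS) is at most 1000 bp and whose width is under 10000 bp. The rule used no read count, and it selected 9012 of the 144154 peaks in the file, named for 7696 genes. Of these, 8997 passed a filter on low counts and could be tested; the 15 others were narrow, with a median width of 264 bp, and 6 peaks had no gene name.

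The libraries came from male C57BL/6J mice aged 12 weeks, with 3 libraries in each of 4 groups, and nuclei were sorted by FACS for the neuronal protein NeuN. HDACi-CFC mice were injected with CI-994, which blocks class I histone deacetylases (HDACi), at 30 mg/kg into the peritoneum 1 h before contextual fear conditioning (CFC), that is, foot shocks in a chamber new to the mouse. Veh-CFC mice had the vehicle without CI-994 and the same conditioning. HDACi-Context mice had CI-994 and Veh-Context mice the vehicle before an equally long stay in the chamber without shock, and all mice were killed 1 h after the test. Drug was assigned at random, but cages were kept to a single protocol, so the effect of shock and that of the cage cannot be told apart. The labels name the dentate gyrus as the source, and the sample titles the hippocampus. The labels list 3 replicates a group where the series text gives another number, and do not say whether a library is 1 animal, so p-values measure the spread between these samples, which may be technical. No spike-in was used here, so each change is relative to the rest of its library, and fewer nuclei with the mark cannot be told apart from less mark per nucleus.

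Acetylation of histone H3 at lysine 27 is added by the acetyltransferases CBP and p300 and removed by class I deacetylases, and it marks promoters and enhancers in use. At an active promoter the TSS itself lies in a stretch poor in nucleosomes, so the mark forms a peak on each side of it or a wide peak across it. The downstream flank lies in the first transcribed nucleosomes and the upstream flank in the promoter proper or, at a divergent promoter, in the start of a second gene. In dentate granule neurons, strong activity switches on immediate early genes within minutes, and class I deacetylases are known to limit memory in rodents.

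The promoters of 6 genes stand for the patterns described below. Wdr75, Armcx1, Lonp2 and Ruvbl2 are shown because their peaks were lower with CI-994 under both protocols, Brd2 because its peak had the largest named rise with shock, and Map1b because its downstream flank changed and its upstream flank did not pass. The sequences are the 250 bases before the TSS, 5′ to 3′ on the gene's strand, from RefSeq on GRCm38.p6. Capitals mark matches on either strand to the GC box GGGCGG, the CCAAT box CCAAT, the ETS core CCGGAAG or the cAMP response element core TGACGT.
Wdr75: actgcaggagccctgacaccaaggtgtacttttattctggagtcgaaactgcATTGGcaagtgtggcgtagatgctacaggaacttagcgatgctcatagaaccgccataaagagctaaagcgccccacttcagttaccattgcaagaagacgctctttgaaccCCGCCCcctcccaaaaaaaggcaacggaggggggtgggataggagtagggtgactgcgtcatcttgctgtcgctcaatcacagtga
Armcx1: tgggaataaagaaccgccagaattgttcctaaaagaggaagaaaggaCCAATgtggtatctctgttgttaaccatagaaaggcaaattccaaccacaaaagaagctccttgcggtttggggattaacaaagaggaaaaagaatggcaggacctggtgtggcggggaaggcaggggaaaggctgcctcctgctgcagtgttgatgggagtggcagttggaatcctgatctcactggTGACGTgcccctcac
Lonp2: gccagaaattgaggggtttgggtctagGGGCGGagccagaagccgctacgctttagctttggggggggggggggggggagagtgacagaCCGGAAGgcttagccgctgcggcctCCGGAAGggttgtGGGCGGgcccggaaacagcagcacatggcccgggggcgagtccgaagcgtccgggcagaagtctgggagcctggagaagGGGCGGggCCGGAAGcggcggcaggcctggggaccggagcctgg
Ruvbl2: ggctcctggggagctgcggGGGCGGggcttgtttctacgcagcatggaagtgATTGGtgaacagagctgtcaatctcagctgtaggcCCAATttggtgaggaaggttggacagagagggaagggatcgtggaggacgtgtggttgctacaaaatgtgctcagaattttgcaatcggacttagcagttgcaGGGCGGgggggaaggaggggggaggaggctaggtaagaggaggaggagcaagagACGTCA
Brd2: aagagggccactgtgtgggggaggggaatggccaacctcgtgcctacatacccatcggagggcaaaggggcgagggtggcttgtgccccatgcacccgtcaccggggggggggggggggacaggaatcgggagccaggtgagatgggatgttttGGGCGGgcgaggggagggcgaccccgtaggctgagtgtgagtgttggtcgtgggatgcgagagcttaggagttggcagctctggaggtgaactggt
Map1b: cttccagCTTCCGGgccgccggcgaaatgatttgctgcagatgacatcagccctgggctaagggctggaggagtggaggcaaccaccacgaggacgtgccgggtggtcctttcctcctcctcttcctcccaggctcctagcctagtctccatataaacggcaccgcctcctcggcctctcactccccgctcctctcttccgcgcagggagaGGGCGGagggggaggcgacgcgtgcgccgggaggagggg
These stretches lie at chr1:45794916-45795165 (plus strand), chrX:134717688-134717937 (plus), chr8:86623793-86624042 (plus), chr7:45434465-45434714 (minus), chr17:34121748-34121997 (minus) and chr13:99516603-99516852 (minus). The Lonp2 stretch held 3 ETS cores and 3 GC boxes, whereas the Brd2 stretch held 1 GC box and no other of these motifs.

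The total count over all peaks lay between 6639158 (Veh-Context replicate 2) and 16734757 (HDACi-Context replicate 2). The median biological coefficient of variation over peaks was 0.131. Of the markers fixed for the labelled cells, 5 of 5 neuronal and 7 of 7 granule neuron genes had at least 1 peak named for them, against 3 of 6 interneuron genes; Gad2, Lhx6 and Slc32a1 had none. Markers of astrocytes, oligodendrocytes and microglia also had peaks, for 6 of 6 genes each, so the peaks themselves do not show that glial chromatin was absent. At the TSS, Syt1 and Bcl11b were the neuronal and granule neuron markers with a strong-promoter peak, and no astrocyte, interneuron, oligodendrocyte or microglia marker had one. The precursor marker Pdgfra, the endothelial marker Kdr and the CA pyramidal marker Mpped1 each had one.

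Of the 9012 peaks, 3435 (38.1%) lay wholly upstream of the TSS, 2867 (31.8%) spanned it and 2710 (30.1%) lay wholly downstream. Their median width was 911 bp, with a range of 206 to 9840 bp, and spanning peaks were wider than either flank, with medians of 1696 bp against 746 bp upstream and 815 bp downstream. The level per length had a median of 3.68 CPM per kb, against 2.79 CPM per kb in all other peaks. Most were annotated promoter-TSS (5652 peaks) or intron (2699 peaks), and 1250 genes had 2 of them. The highest level per length stood at a peak named for Hjurp, the gene of the CENP-A chaperone, with 16.3 CPM per kb. Msantd4 (11.2 CPM per kb), Zbtb18, a repressor of transcription in the developing cortex (10.7), and Ndufb3 of respiratory complex I (10.6) came next. A730008H23Rik (10.6) and Ppp2r2c, a regulatory subunit of protein phosphatase 2A (10.5), followed. The deposited annotation gives the Hjurp and A730008H23Rik peaks the same transcript, with distances of −399 and 807 bp. They may be flanks of the same promoter, so their levels are not assigned to separate genes.

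As a group these promoters lost ground with CI-994 and gained with shock. They held 4.31, 4.02 and 4.12% of the counts in HDACi-CFC libraries, against 5.33, 5.13 and 4.69% in Veh-CFC libraries. The shares were 3.23, 3.17 and 3.26% in HDACi-Context libraries, against 4.42, 4.25 and 4.56% in Veh-Context libraries. Neither drug comparison had overlapping libraries, and the lowest CFC library lay above every Context library with the same injection. The share averaged 4.15% ± 0.146 in HDACi-CFC, 5.05% ± 0.328 in Veh-CFC libraries, 3.22% ± 0.0449 in HDACi-Context and 4.41% ± 0.155 in Veh-Context (SD, n = 3 each). Mean total counts were also higher with the drug, at 12240133 in HDACi-CFC and 8241749 in Veh-CFC, and 14716379 in HDACi-Context and 11203850 in Veh-Context. The libraries of CFC mice did not overlap in total count. Those of Context mice did, with 13533876 to 16734757 in HDACi-Context and 6639158 to 13711438 in Veh-Context. The part of total counts in the result was not tested.

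**Figure D1:**
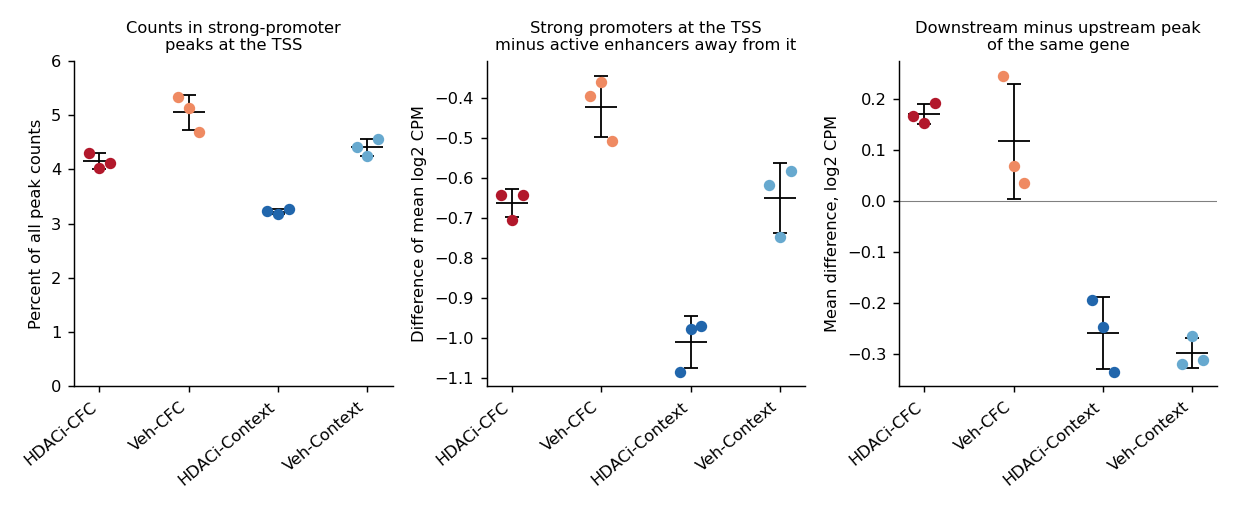
H3K27ac at strong-promoter peaks by library, with each dot a library, the bar the mean and the whisker 1 SD (n = 3). The left panel gives the percent of counts in these peaks, the middle panel their mean log2 CPM minus that of active enhancers away from the TSS, and the right panel the mean log2 difference between the downstream and the upstream peak of the same gene; HDACi-Context libraries are lowest in the first and second panels, and all CFC libraries are above 0 and all Context libraries below 0 in the third.

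The drug comparison in conditioned mice, HDACi-CFC against Veh-CFC, asked what CI-994 did on top of shock. Of the 8997 peaks, 365 fell and 4 rose by edgeR's quasi-likelihood test at a Benjamini-Hochberg adjusted p under 0.05, against 0.435% lower and 0.483% higher of all 144014 peaks tested. The median change was −0.24 on the log2 scale, against −0.01 over all peaks, and 73.9% of the peaks had a negative change. In 28.1% of them all 3 HDACi-CFC libraries lay below all 3 Veh-CFC libraries, against 8.52% of all peaks.

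The 6 largest drops with non-overlapping libraries at a mean of at least 5 CPM were at Coq7, Wdr75, Armcx1, Hist1h2bb, Lonp2 and Ruvbl2. Wdr75, a ribosome assembly factor, had 3.84, 4.16 and 3.70 CPM in HDACi-CFC and 10.4, 9.01 and 9.34 CPM in Veh-CFC libraries. Its peak at chr1:45794786-45795447 (mm10) spans the TSS, and its change was −1.30 ± 0.22 (SE; edgeR adjusted p = 0.00143). The highest HDACi-CFC library lay far below the lowest Veh-CFC library. Armcx1, which acts in the transport of mitochondria along axons, had 4.93, 4.06 and 2.94 CPM in HDACi-CFC, against 9.51, 9.76 and 9.91 CPM in Veh-CFC libraries. Lonp2, the protease of peroxisomes, had 3.55, 4.89 and 4.12 CPM in HDACi-CFC, against 8.22, 9.23 and 10.9 CPM in Veh-CFC libraries. Ruvbl2, an ATPase of chromatin remodelling complexes, had 4.06, 3.64 and 5.04 CPM in HDACi-CFC and 8.22, 10.5 and 10.2 CPM in Veh-CFC libraries. These 3 changes were −1.28 ± 0.20, −1.19 ± 0.18 and −1.18 ± 0.19 in that order, and non-overlapping groups were a condition of naming them. Coq7 of ubiquinone synthesis (−1.50 ± 0.21) and the histone gene Hist1h2bb (−1.22 ± 0.21) also fell, the second with reads that near-identical histone copies may share. All 6 kept their call under 19 of 19 alternative settings, with adjusted p at most 0.046.

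The rises were few. Jakmip3 had 7.39, 7.49 and 7.22 CPM in HDACi-CFC and 5.14, 4.56 and 2.55 CPM in Veh-CFC libraries, a change of 0.83 ± 0.21. Tex26 had 17.0, 16.1 and 15.2 CPM in HDACi-CFC and 11.2, 12.1 and 8.64 CPM in Veh-CFC libraries, a change of 0.59 ± 0.15. Both calls were lost with DESeq2 and without any one of HDACi-CFC replicates 1 to 3 or Veh-CFC replicates 2 and 3, with adjusted p up to 0.226 and 0.221, and that of Tex26 also without HDACi-Context replicate 2.

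With scaling factors taken from these promoters themselves, which centres them by construction, 169 rose and 119 fell in this comparison. Without HDACi-CFC replicate 1, 2 or 3 the 365 drops became 109, 122 or 62, and without Veh-CFC replicate 2 or 3 they became 74 or 209. The 4 rises became 0 without any of these 5 libraries, 29 without Veh-CFC replicate 1 and 8 without HDACi-Context replicate 1.

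In mice that met no shock, HDACi-Context against Veh-Context, more promoters passed. Of the 8997 peaks 2760 fell and 8 rose by edgeR's quasi-likelihood test with Benjamini-Hochberg adjustment, against 5.85% lower and 2.73% higher of all peaks. The median change was −0.50, against −0.01 over all peaks, and 88.6% of changes were negative. All 3 HDACi-Context libraries lay below all 3 Veh-Context libraries at 47.0% of these promoters, against 13.3% of all peaks. Of the 365 promoters that fell in conditioned mice 320 fell here as well. That is 87.7% of those 365, against 30.7% of all 8997 promoters, and 11.6% of the 2760. The overlap over all peaks was not counted. The 2 comparisons share no library, but they come from the same fit with a shared estimate of the spread. Across the promoters the 2 drug effects had Pearson r = 0.341, given as a description, since peaks share libraries and depth.

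Peg3, an imprinted zinc finger gene expressed from the paternal copy, had the lowest adjusted p of the named drops. It had 2.50, 1.80 and 2.11 CPM in HDACi-Context and 7.62, 10.2 and 9.85 CPM in Veh-Context libraries, a change of −2.10 ± 0.19 (edgeR adjusted p = 4.1e-10). In conditioned mice it had 4.78, 5.30 and 4.96 CPM with the drug and 10.4, 11.2 and 12.0 CPM with vehicle, a change of −1.16 ± 0.18. Its highest drug library stayed below its lowest vehicle library under either protocol. Fbxw5, a substrate receptor of ubiquitin ligases, had 3.68, 2.96 and 1.29 CPM in HDACi-Context, against 8.06, 11.2 and 12.7 CPM in Veh-Context libraries, a drop with an edgeR adjusted p of 3.11e-06. Cbarp, which regulates calcium channels, had 2.02, 1.27 and 0.476 CPM in HDACi-Context and 3.66, 7.80 and 7.50 CPM in Veh-Context libraries, a change of −2.28 ± 0.41. Lratd1 (−2.08 ± 0.40) also fell under 19 of 19 alternatives. Ppp2r2c (−2.13 ± 0.49) and Pgs1 of cardiolipin synthesis (−1.94 ± 0.51) were less steady: they lost their call in 4 and 11 of 19 alternatives, among them those without HDACi-Context replicate 2 and without Veh-Context replicates 2 and 3, with adjusted p up to 0.0965 and 0.158.

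The 4 example promoters were picked because their peaks were lower under both protocols, so their drops here are no separate support. Wdr75 had 3.55, 2.61 and 5.78 CPM in HDACi-Context, against 11.4, 8.24 and 7.72 CPM in Veh-Context libraries (−1.22 ± 0.20). Armcx1 had 3.41, 2.84 and 2.45 CPM in HDACi-Context and 7.02, 8.54 and 10.1 CPM in Veh-Context libraries (−1.56 ± 0.19). Lonp2 changed by −1.04 ± 0.16 and Ruvbl2 by −1.33 ± 0.20, with no overlap between the groups.

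Rises were led by Capsl (0.63 ± 0.17), Satb1, an organiser of chromatin loops (0.61 ± 0.18), Cabcoco1 (0.60 ± 0.17) and Kcnip4, a partner of Kv4 potassium channels (0.59 ± 0.18). Capsl had 7.51, 10.4 and 11.2 CPM in HDACi-Context and 7.39, 5.89 and 5.44 CPM in Veh-Context libraries. None of the 4 kept its call under every alternative: each was lost in 2 to 6 of 19, each time without Veh-Context replicate 3 and otherwise with DESeq2 or without another Veh-Context or an HDACi-Context library, with adjusted p up to 0.168.

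With factors from the promoters themselves, 622 rose and 818 fell in this comparison. The 2760 drops became 1418 without Veh-Context replicate 3 and 1772 without HDACi-Context replicate 2. The 8 rises became 3 and 1 without Veh-Context replicates 2 and 3, 13, 4 and 2 without HDACi-Context replicates 1, 2 and 3, and 13 without Veh-CFC replicate 1.

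**Figure D2:**
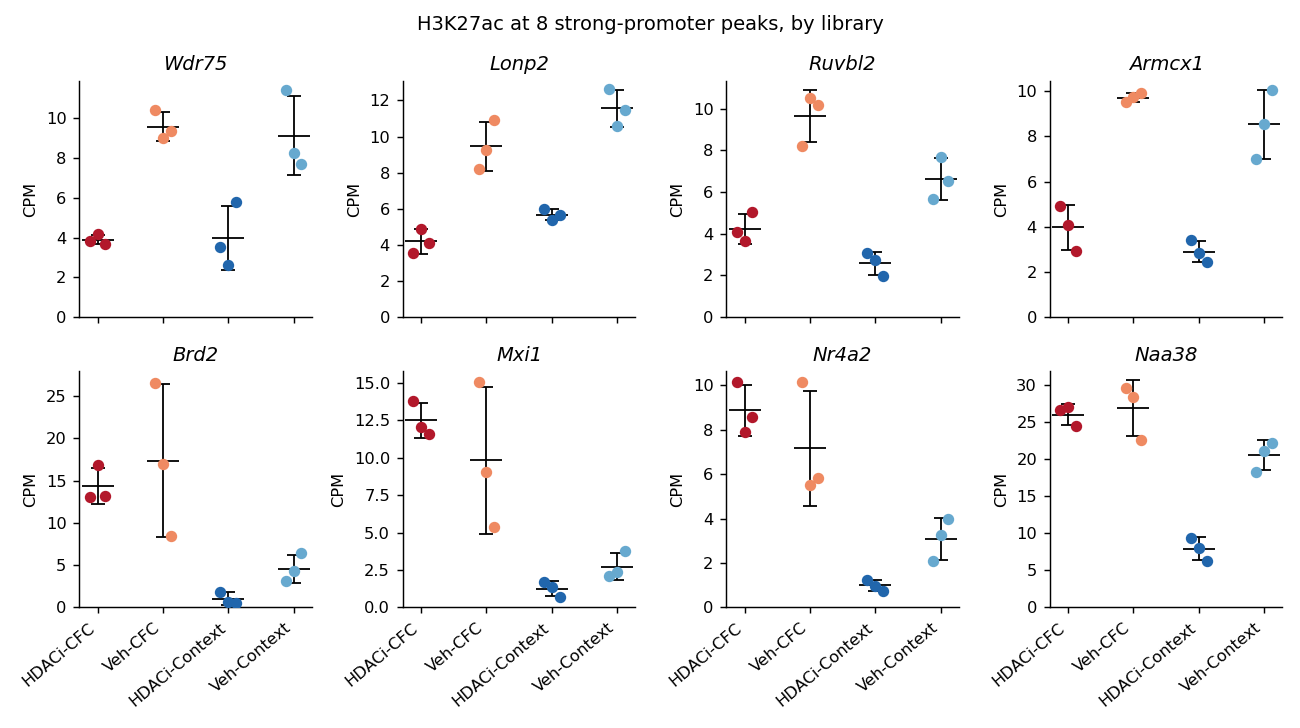
CPM at 8 promoter peaks in each library, with the 4 groups on the horizontal axis, the mean as a bar and 1 SD as whiskers (n = 3). In the upper row the drug groups lie below their vehicle groups under both protocols; in the lower row the CFC groups lie above the HDACi-Context group, and Naa38 is low in HDACi-Context libraries only, at 6.26 to 9.39 CPM.

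The shock comparison under vehicle, Veh-CFC against Veh-Context, had the opposite sign. Of the 8997 peaks 882 rose and 39 fell by edgeR's quasi-likelihood test with Benjamini-Hochberg adjustment, against 4.41% higher and 2.74% lower of all peaks. The median change was 0.23, against 0.00 over all peaks. All 3 Veh-CFC libraries lay above all 3 Veh-Context libraries at 22.8% of these promoters, against 12.6% of all peaks. Under the drug, HDACi-CFC against HDACi-Context, 3814 rose and 102 fell, against 20.2% higher and 17.8% lower of all peaks, and the median change was 0.45 against −0.05 over all peaks. There 51.6% of the promoters had all 3 HDACi-CFC libraries above all 3 HDACi-Context libraries, against 24.1% of all peaks. Of the 882 promoters that rose under vehicle 822 also rose under the drug. That is 93.2% of the 882, against 42.4% of all 8997 promoters, and 21.6% of the 3814. These 2 comparisons share no library but share the fit, and their overlap over all peaks was not counted. Across promoters their changes had r = 0.790, given as a description, like the one above.

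Brd2, a reader of acetylated histones, had the largest rise under either injection among promoters of at least 5 CPM with non-overlapping libraries. It had 13.1, 16.8 and 13.2 CPM in HDACi-CFC and 1.88, 0.696 and 0.476 CPM in HDACi-Context libraries, a change of 3.83 ± 0.55 (edgeR adjusted p = 0.000758). Under vehicle it had 26.6, 17.0 and 8.49 CPM in Veh-CFC and 3.14, 4.27 and 6.39 CPM in Veh-Context libraries, a change of 1.91 ± 0.46 (edgeR adjusted p = 0.043). CFC and Context libraries did not overlap under either injection, but the call under vehicle was lost in 9 of 19 alternatives, among them those without Veh-Context replicates 1 or 2, Veh-CFC replicates 1 or 2, HDACi-Context replicate 2 or any HDACi-CFC replicate (adjusted p up to 0.15). Mxi1, which opposes MYC, had 13.8, 12.1 and 11.6 CPM in HDACi-CFC against 1.67, 1.39 and 0.680 CPM in HDACi-Context libraries (3.31 ± 0.32). Under vehicle it had 15.0, 9.01 and 5.38 CPM in Veh-CFC and 2.09, 2.36 and 3.75 CPM in Veh-Context libraries (1.81 ± 0.32). It kept both calls under 19 of 19 alternatives.

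Other rises under vehicle were Stx16, a SNARE protein of the Golgi (1.68 ± 0.27), the long noncoding RNA Miat (1.34 ± 0.21) and Mycn, a member of the MYC family (1.30 ± 0.21), each under 19 of 19 alternatives. Mycn had 14.0, 10.7 and 10.8 CPM in Veh-CFC and 3.28, 5.45 and 5.88 CPM in Veh-Context libraries. Ppp2r2c rose under vehicle (1.51 ± 0.36), though not in 6 of 19 alternatives that included leaving out Veh-Context replicates 1 or 2 or Veh-CFC replicates 1 or 2. Under the drug it rose with all of them (3.09 ± 0.44), as did Nr4a2 (3.15 ± 0.25), Mir7000 (2.89 ± 0.40) and Pik3r2, a regulatory subunit of phosphoinositide 3-kinase (3.47 ± 0.61). Mir7000 had 17.3, 16.5 and 17.1 CPM in HDACi-CFC and 3.48, 2.26 and 1.16 CPM in HDACi-Context libraries.

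Drops with shock were smaller. Under vehicle they were led by Pcyox1l (−0.69 ± 0.21), the noncoding gene B230216N24Rik (−0.69 ± 0.16), the chromatin remodeller Smarcad1 (−0.68 ± 0.19), Mstn, which encodes myostatin (−0.65 ± 0.17), Pcm1 of the centriolar satellites (−0.63 ± 0.19) and Atxn2l (−0.62 ± 0.18). B230216N24Rik had 9.76, 9.33 and 8.21 CPM in Veh-CFC and 16.3, 14.0 and 13.7 CPM in Veh-Context libraries. All 6 calls were lost without Veh-Context replicate 1, with adjusted p from 0.071 to 0.199 at their highest over the alternatives. Under the drug Capsl (−0.66 ± 0.17), Zfand6 (−0.59 ± 0.17) and Runx2, a transcription factor best known in bone (−0.56 ± 0.16), fell under 19 of 19 alternatives. Zfp953 (−0.54 ± 0.20), Osbp (−0.54 ± 0.20) and the RNA editing enzyme Adar (−0.51 ± 0.19) each lost the call in 6 of 19, with loess offsets, with DESeq2, without HDACi-CFC replicate 1 and without 3 others among HDACi-CFC, HDACi-Context and Veh-Context libraries (adjusted p up to 0.184).

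With factors from the promoters themselves, 465 rose and 345 fell with shock under vehicle, and 1712 rose and 1414 fell under the drug. Under vehicle the 882 rises became 160 or 489 without Veh-Context replicate 1 or 2, and 139 or 520 when Veh-CFC replicate 1 or 2 was left out. The 39 drops became 3, 24 and 20 without Veh-Context replicates 1, 2 and 3, 5 without Veh-CFC replicate 1 and 64 without HDACi-Context replicate 1. Under the drug the rises stayed between 2993 and 3942 whichever library was left out, while the 102 drops became 49 and 25 without HDACi-Context replicates 2 and 3 and 53, 61 and 52 without HDACi-CFC replicates 1, 2 and 3.

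The shock effect was not the same on both sides of the TSS. Under vehicle the median change was 0.43 at downstream peaks, 0.24 at spanning peaks and 0.08 at upstream peaks. Of 2702 downstream peaks 371 rose and 0 fell, of 2864 spanning peaks 388 rose and 12 fell, and of 3431 upstream peaks 123 rose and 27 fell. Under the drug the medians were 0.60, 0.52 and 0.28 in the same order, with 1289, 1567 and 958 rises and 4, 25 and 73 drops. The drug medians had no such slope. They were −0.23 downstream, −0.25 spanning and −0.25 upstream in CFC mice, and −0.47, −0.56 and −0.48 in Context mice. The shares called lower did differ by position. In the same order 52 (1.92%), 200 (6.98%) and 113 (3.29%) fell in CFC mice, with 2, 1 and 1 rises. In Context mice 506 (18.7%), 1325 (46.3%) and 929 (27.1%) fell, with 1, 5 and 2 rises.

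**Figure D3:**
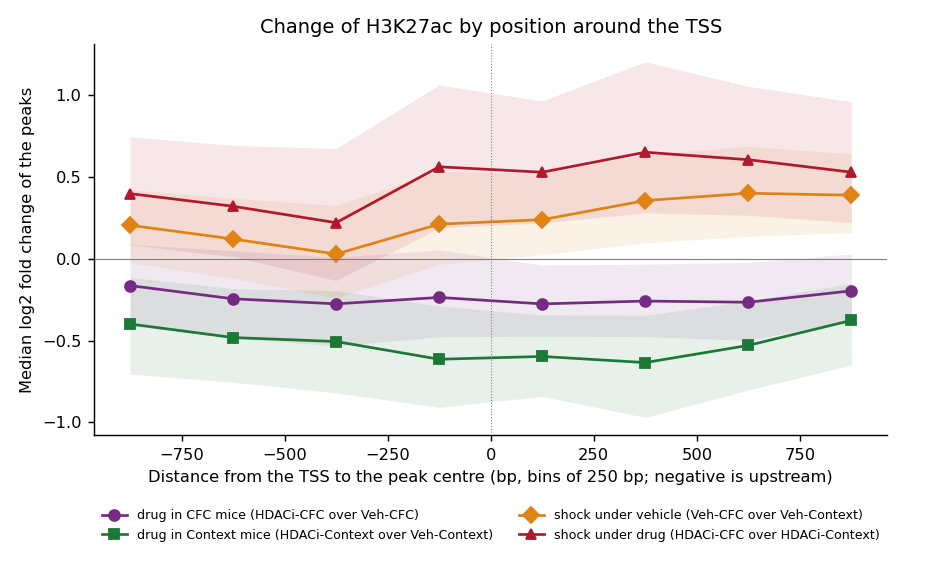
Median log2 fold change of strong-promoter peaks by the distance of their centre from the TSS, in bins of 250 bp from upstream (negative) to downstream, for 4 comparisons, with the quartiles as shaded bands. Both shock lines are lowest between 500 and 250 bp upstream, at 0.03 under vehicle and 0.22 under the drug, and reach 0.40 and 0.65 downstream, while both drug lines stay below 0 in every bin.

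By distance, the shock effect under vehicle was 0.03 for peaks centred 500 to 250 bp upstream and 0.40 for those 500 to 750 bp downstream. The outermost upstream bin, 1000 to 750 bp before the TSS, had 0.20, above the bins next to it. Upstream peaks with an annotated divergent gene within 1000 bp had a median of 0.19 under vehicle (n = 141), against 0.08 for upstream peaks with none listed (n = 2508). For the shock effect under the drug these medians were 0.39 and 0.26.

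In 985 genes both flanks were strong-promoter peaks of their own, so that each gene could serve as its own control. The mean downstream minus upstream level on the log2 CPM scale was 0.166, 0.152 and 0.192 in HDACi-CFC and 0.245, 0.0687 and 0.0349 in Veh-CFC libraries. It was −0.195, −0.247 and −0.335 in HDACi-Context and −0.320, −0.264 and −0.311 in Veh-Context libraries. All 6 CFC libraries were positive and all 6 Context libraries negative, while drug and vehicle libraries overlapped among CFC and among Context mice.

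Gene by gene, a test of the downstream over upstream ratio, chosen after the data were seen, was fitted with limma on all 1374 genes with a peak on each side. Under vehicle 48 of the 985 pairs (4.87%) had a higher ratio with shock and 1 (0.102%) a lower one at a Benjamini-Hochberg adjusted p under 0.05, against 4.59% higher and 0.146% lower of all pairs. Under the drug 172 (17.5%) were higher and 15 (1.52%) lower, against 19.2% and 1.75% of all pairs. The shares of the 985 pairs lay near those of all pairs, which include them, so no shift particular to them was shown. Their median shift of the ratio was 0.41 under vehicle and 0.41 under the drug, against 0.39 and 0.43 over all pairs. Of their shifts 79.7% and 71.7% were positive. Neither drug comparison had a pair past the threshold (0.0% of all pairs in either direction). At an unadjusted limma p under 0.05 there were 83 of the 985 in CFC and 138 in Context mice. Of all 1374 pairs there were 104 and 204. The interaction had 0 past the threshold as well, with 60 at an unadjusted limma p under 0.05, against 101 of all 1374. No second tool was run on the ratios.

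Dcaf5, a substrate receptor of a ubiquitin ligase, had the pattern under both injections. Its downstream peak, chr12:80435403-80436357 in the first intron, had 3.55, 3.74 and 4.54 CPM in HDACi-CFC, 6.68, 3.29 and 4.39 CPM in Veh-CFC, 0.626, 0.290 and 0.680 CPM in HDACi-Context and 0.896, 0.883 and 0.808 CPM in Veh-Context libraries. This flank was low in every Context library. Its upstream peak, chr12:80437022-80437698, had 2.46, 1.56 and 1.93 CPM in HDACi-CFC and 2.57, 1.06 and 1.42 CPM in Veh-CFC libraries, and 1.95, 2.49 and 2.18 CPM in HDACi-Context and 2.02, 2.36 and 1.62 CPM in Veh-Context libraries. CFC and Context libraries did not overlap downstream and overlapped upstream, and the ratio shifted by 2.50 ± 0.34 under vehicle (limma adjusted p = 0.00131) and by 2.75 ± 0.34 under the drug.

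Map1b, which encodes a microtubule protein of growing axons, behaved likewise. Its downstream peak had 4.56, 4.68 and 4.87 CPM in HDACi-CFC and 0.556, 0.290 and 0.0680 CPM in HDACi-Context libraries, and 10.3, 6.57 and 3.26 CPM in Veh-CFC and 0.821, 1.03 and 2.28 CPM in Veh-Context libraries. Its upstream peak stayed between 4.45 and 7.61 CPM in all 12 libraries. The 0.0680 CPM downstream is a count of 1, the smallest in the file, to which cells without a read may have been set, so the size of the shift under the drug is not given for Map1b or for Ccnd3, which encodes cyclin D3 and has the same floor. Both passed under the drug (limma adjusted p = 0.000584 each). Under vehicle the Map1b ratio shifted by 2.06 ± 0.48, and that of Ccnd3 by 0.89 ± 0.55, which did not pass. Tpd52l1 shifted by 3.02 ± 0.46 under the drug, with a downstream change of 3.19 ± 0.42 and an upstream change of −0.26 ± 0.26 that did not pass. Cnot10 of the CCR4-NOT deadenylase shifted by 2.98 ± 0.52 in another way: its upstream peak fell (−1.72 ± 0.32) and its downstream peak rose (edgeR adjusted p = 0.00376).

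The count under vehicle rests on few libraries. The 48 pairs became 1 or 3 without Veh-Context replicate 1 or 2, 3, 23 or 83 without Veh-CFC replicate 1, 2 or 3, 21 without HDACi-Context replicate 2, and 17, 28 or 20 when HDACi-CFC replicate 1, 2 or 3 was left out, while the median shift stayed between 0.35 and 0.45. Under the drug the 172 pairs became 87 without HDACi-Context replicate 3 and 105 and 114 without HDACi-CFC replicates 1 and 3.

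At 5 promoters the drug effect differed between the protocols. The interaction was the drug effect in CFC mice minus that in Context mice. By edgeR's quasi-likelihood test with Benjamini-Hochberg adjustment it was positive at 5 promoters (0.0556%) and negative at 0, against 0.034% and 0.000694% of all peaks. At an unadjusted edgeR p under 0.05 there were 1377 and 35, and the same count over all peaks was not made. DESeq2 gave 13 and 0, against 105 and 0 of all 144154 peaks. The median over all 8997 promoters was 0.26, against 0.01 over all peaks. The positive share was 0.167% at strong promoters away from the TSS and 0.167% at active enhancers at the TSS, above that of these promoters. The peak named for Naa38, a subunit of the NatC N-terminal acetyltransferase, is 4673 bp wide and spans the TSS. Its centre lies 756 bp downstream, and its deposited annotation is the end of a transcript. Naa38 had 26.6, 26.9 and 24.4 CPM in HDACi-CFC and 29.5, 28.3 and 22.5 CPM in Veh-CFC libraries. It had 9.39, 8.06 and 6.26 CPM in HDACi-Context and 18.3, 21.1 and 22.2 CPM in Veh-Context libraries. The drug groups overlapped in CFC mice and were far apart in Context mice, and the interaction was 1.32 ± 0.20 (edgeR adjusted p = 0.00262); it was lost without Veh-Context replicate 3 and with factors from the promoters themselves (edgeR adjusted p at most 0.0688).

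Nr4a2, an orphan nuclear receptor and immediate early gene, had 10.1, 7.90 and 8.57 CPM in HDACi-CFC and 10.1, 5.51 and 5.80 CPM in Veh-CFC libraries. It had 1.25, 0.985 and 0.748 CPM in HDACi-Context and 2.09, 3.24 and 3.97 CPM in Veh-Context libraries, with an interaction of 1.95 ± 0.37 (edgeR adjusted p = 0.0368). Nat14 (1.15 ± 0.20), Speg, a kinase of striated muscle (1.13 ± 0.21), and D11Wsu47e (1.46 ± 0.30) were also lowest in HDACi-Context libraries, the last being outside the naming rule at under 5 CPM. The count of 5 rose to 119 without Veh-Context replicate 1, 294 without Veh-CFC replicate 1 and 337 with 2 lower without HDACi-Context replicate 1. Over all peaks the higher count went from 49 to 834, 2363 and 3477 in the same order, with 40, 225 and 254 lower. The promoter count of 5 became 0 without Veh-Context replicate 3 and 3 without HDACi-CFC replicate 1. It was 1 without each of Veh-Context replicate 2, Veh-CFC replicates 2 and 3, HDACi-Context replicates 2 and 3 and HDACi-CFC replicates 2 and 3.

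Immediate early genes, which neurons switch on within minutes of firing, had a strong-promoter peak at the TSS for 18 of 30 listed genes. With shock 10 rose and 0 fell under vehicle (median 0.64, against 0.23 for all 7686 genes tested), and 13 rose and 2 fell under the drug (median 1.36, against 0.45). Of all 7686 genes 783 rose and 34 fell with shock under vehicle, and 3335 rose and 81 fell under the drug. With the drug 0 rose and 5 of 18 fell in Context mice (median −0.58, against −0.51), a share below the 2545 of 7686 over all genes. In CFC mice 0 passed (median −0.04, against −0.24), against 352 drops over all genes. The median in CFC mice turned positive, at 0.21, with factors from the promoters themselves; the other 3 medians kept their sign under each scaling tried.

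Per1, a clock gene induced by activity, had 67.4, 69.3 and 64.9 CPM in HDACi-CFC, 85.4, 82.3 and 70.1 CPM in Veh-CFC, 30.5, 25.7 and 20.4 CPM in HDACi-Context and 50.5, 44.9 and 56.3 CPM in Veh-Context libraries. CFC libraries all lay above Context libraries, and the drug groups of each protocol did not overlap. Junb, an AP-1 subunit, had 11.4, 9.36 and 12.1 CPM in HDACi-CFC and 4.52, 4.46 and 3.67 CPM in HDACi-Context libraries, a rise of 1.38 ± 0.16, and rose by 0.54 ± 0.16 under vehicle. Atf3, a stress-induced transcription factor, had 3.69, 3.33 and 2.77 CPM in HDACi-CFC and 0.278, 0.290 and 0.408 CPM in HDACi-Context libraries. Gadd45b, linked to DNA demethylation, rose by 1.96 ± 0.26 under the drug and 1.05 ± 0.28 under vehicle. Jun, Egr3 and Ier5 were also called in both shock comparisons, but none had more than 0.139 CPM in an HDACi-Context library, and their fitted changes are not given.

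Not every immediate early promoter rose. Egr4 fell under the drug (−1.03 ± 0.32) with 1.16, 1.04 and 0.840 CPM in HDACi-CFC and 1.81, 2.09 and 2.38 CPM in HDACi-Context libraries, and so did Crem (−0.37 ± 0.14). Homer1, a scaffold of the synapse, had 0.12 ± 0.13 under vehicle and 0.10 ± 0.12 under the drug, and did not pass. Bdnf, the neurotrophin, rose under the drug (0.59 ± 0.12) but had 0.17 ± 0.13 under vehicle without passing. Npas4, a neuronal activity factor, rose under the drug (1.34 ± 0.22) and had 0.64 ± 0.23 under vehicle, which did not pass (edgeR adjusted p = 0.0717).

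Lists of genes for protein synthesis and RNA processing are read against all 7686 genes tested, of which 2545 fell in Context and 352 in CFC mice. Of 44 genes of cytosolic ribosomal proteins 27 fell and 0 rose in Context mice, and 7 fell and 0 rose in CFC mice, with medians of −0.71 and −0.38 against −0.51 and −0.24 for all genes. Rpl10 (−1.51 ± 0.14 in Context and −1.03 ± 0.14 in CFC mice) and Rps6 (−1.37 ± 0.16 and −0.93 ± 0.16) were among them, and reads at such genes may be shared with pseudogenes. Of 58 mitochondrial ribosomal genes 28 fell in Context and 3 in CFC mice (medians −0.65 and −0.41), led by Mrpl12 in Context mice (−1.86 ± 0.36) and Mrps18a in CFC mice (−0.99 ± 0.22). Of 37 translation initiation factors 14 and 4 fell (medians −0.52 and −0.40), with Eif3b at −1.16 ± 0.14 in Context and Eif3h at −1.25 ± 0.28 in CFC mice. Of 32 splicing factors 14 and 2 fell (medians −0.61 and −0.40), and Snrpd3 fell in both (−1.33 ± 0.18 and −0.75 ± 0.17).

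Replication-dependent histone genes, 22 with a peak, had the lowest median in CFC mice at −0.66, with 6 drops, and −0.67 with 10 drops in Context mice. Hist1h4h fell by 1.02 on the log2 scale in CFC and by 1.15 in Context mice, with the same limit on near-identical copies. Of 45 genes of the respiratory chain and ATP synthase 18 fell in Context and 4 in CFC mice, Ndufs8 and Ndufb3 in both. Of 30 RNA polymerase II and Mediator genes 13 and 3 fell, with Med28 in both (−1.33 ± 0.22 and −0.93 ± 0.24). None of the genes in these 7 lists rose with the drug with TMM factors over all peaks. With factors from the promoters themselves the drops in Context mice became 9 for cytosolic and 4 for mitochondrial ribosomal genes, 5 for initiation factors, 4 for splicing factors, 6 for histones, 5 for the respiratory chain and 2 for polymerase II and Mediator. In that fit 2 cytosolic ribosomal, 2 mitochondrial ribosomal, 2 splicing, 1 respiratory and 1 initiation factor gene rose in Context mice, and 1 splicing gene rose in CFC mice. The drug medians of the 7 lists kept their sign under each scaling tried, whereas their shock medians, 0.13 to 0.24 under vehicle and 0.27 to 0.47 under the drug, turned negative with factors from the promoters themselves in at least 1 of the 2 shock comparisons.

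Of 18 genes of cAMP, calcium and MAP kinase signalling 0 passed in CFC mice (median 0.06) and 8 fell in Context mice (median −0.57). Rasgrf1, a Ras exchange factor, fell by 1.83 on the log2 scale in Context mice and rose by 2.44 ± 0.26 with shock under the drug and 0.86 ± 0.23 under vehicle. Of 10 glutamate receptor and postsynaptic genes 0 passed in CFC mice (median −0.06, positive with factors from the promoters themselves) and 4 fell in Context mice (median −0.55), among them the NMDA receptor subunit Grin2b (−1.28 ± 0.18). Grin2b rose with shock by 1.49 ± 0.18 under the drug and 0.59 ± 0.17 under vehicle. Of 10 vesicle release genes 2 fell in Context mice, Stx1a (−1.36 ± 0.44) and Nsf (−0.99 ± 0.23), and 5 rose with shock under the drug. Set beside these lists, 2545 of all 7686 genes fell in Context mice and 3335 rose with shock under the drug.

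Of 9 histone deacetylase and corepressor genes, of any class, 0 passed in CFC mice and 3 fell in Context mice: Hdac10 (−1.20 ± 0.27), Hdac3 (edgeR adjusted p = 2.49e-05) and Hdac8 (−0.64 ± 0.21). That is 3 of 9, near the 2545 of 7686 over all genes. Their median in Context mice was −0.50, and 0.01 with factors from the promoters themselves. Of 10 acetyltransferase and reader genes 4 fell in Context mice, led by the coactivator Ncoa3 (−1.58 ± 0.36) and the acetyltransferase Kat5 (−1.13 ± 0.27). With shock under the drug 6 rose, against 3335 of 7686 over all genes. Of 15 cholesterol synthesis genes 5 fell in Context mice and 1, Cyp51 (−1.28 ± 0.22), in CFC mice. Of 23 proteasome genes 7 and 1 fell. Of 231 Zfp zinc finger genes 82 fell in Context and 9 in CFC mice (medians −0.50 and −0.31), shares near those of all genes (2545 and 352 of 7686). With shock 22 of the 231 rose under vehicle and 84 under the drug (medians 0.19 and 0.38), against 783 and 3335 of 7686. With factors from the promoters themselves 17 fell and 9 rose in Context mice, the Context drug median became 0.00, and both shock medians were negative.

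The TSS peaks of cell type markers differed in their order of groups. The summed level of the TSS peaks of oligodendrocyte markers, of any state, was 8.01 to 13.3 CPM in HDACi-CFC, 11.2 to 18.3 CPM in Veh-CFC, 5.90 to 7.26 CPM in HDACi-Context and 8.17 to 11.05 CPM in Veh-Context libraries. That of granule neuron markers was 8.34 to 15.1 CPM in HDACi-CFC and 13.1 to 17.0 CPM in Veh-CFC libraries, and 4.80 to 7.67 CPM in HDACi-Context and 7.97 to 10.3 CPM in Veh-Context libraries. Astrocyte markers had 5.35 to 5.53 CPM in HDACi-CFC and 4.89 to 8.80 CPM in Veh-CFC libraries, and 1.96 to 2.91 CPM in HDACi-Context and 3.33 to 5.63 CPM in Veh-Context libraries. Microglia markers had 3.62 to 5.71 CPM in HDACi-CFC and 4.05 to 5.17 CPM in Veh-CFC libraries, and 1.71 to 2.67 CPM in HDACi-Context and 3.28 to 3.84 CPM in Veh-Context libraries. Markers of oligodendrocyte precursors had overlapping ranges in Context mice, with 2.14 to 3.12 CPM in HDACi-Context and 1.92 to 2.55 CPM in Veh-Context libraries. They had 5.17 to 7.13 CPM in HDACi-CFC and 3.15 to 8.06 CPM in Veh-CFC libraries. HDACi-Context and Veh-Context ranges also overlapped for neuronal (4.98 to 5.77 and 5.25 to 8.15 CPM), CA pyramidal (4.54 to 6.05 and 5.20 to 8.11 CPM) and endothelial and mural markers (3.45 to 4.51 and 4.10 to 6.76 CPM). The drug and vehicle ranges of CFC mice overlapped in all these lists. Of 6 oligodendrocyte genes 4 had such a peak and Cnp and Mbp had none, and of 7 granule neuron genes 2 had one. Their part in the results was not tested.

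The size of the change went with the level of acetylation. When promoters were ranked by CPM per kb in the 6 libraries outside a comparison, the drug effect in CFC mice had a median of 0.01 in the lowest quartile and −0.41 in the highest, with 2 and 263 drops. In Context mice the medians were −0.28 and −0.70, with 181 and 1360 drops. Shock ran the other way round. Under vehicle the median was 0.53 in the lowest quartile and 0.07 in the highest, and under the drug 0.82 and 0.30.

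**Figure D4:**
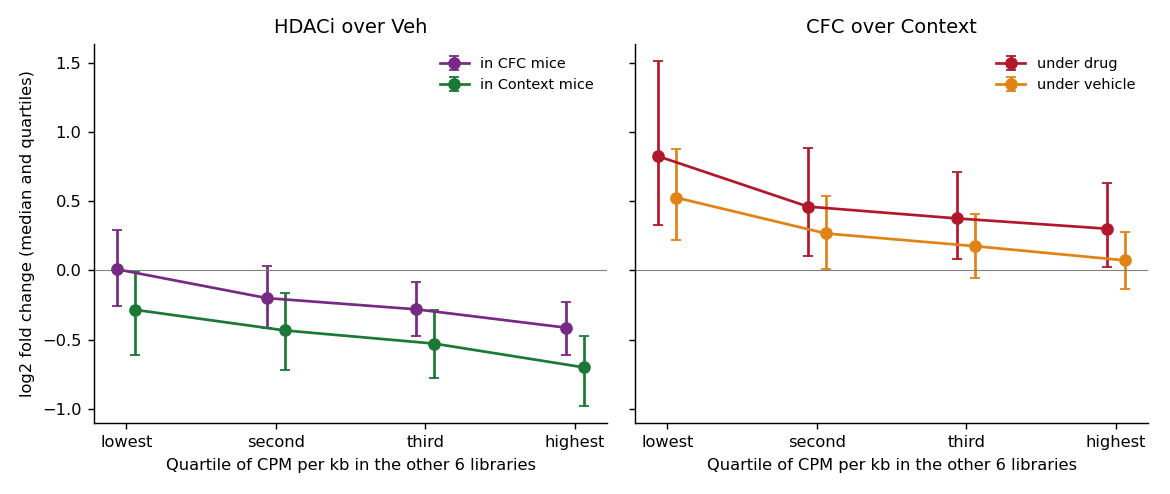
Median log2 fold change of strong-promoter peaks, with quartiles as whiskers, by quartile of CPM per kb in the 6 libraries outside the comparison. In the left panel the drug effect goes down towards the highest quartile, to −0.41 in CFC and −0.70 in Context mice; in the right panel the shock effect is highest in the lowest quartile, at 0.82 under the drug and 0.53 under vehicle.

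Set beside other classes of peaks, the drop with the drug was deepest at these promoters among the 6 classes compared. In CFC mice the median was −0.24 here, −0.02 at 6580 strong-promoter peaks away from the TSS, 0.02 at 1196 active enhancers at the TSS and 0.05 at active enhancers away from it. In Context mice it was −0.50 here and −0.25, −0.29 and −0.09 in the same classes. With shock under vehicle, by contrast, the median of 0.23 here lay beside 0.26 at strong promoters away from the TSS and 0.20 at active enhancers at the TSS. Per library, these promoters minus active enhancers away from the TSS averaged −0.66 ± 0.04 on the log2 scale in HDACi-CFC, −0.42 ± 0.08 in Veh-CFC libraries, −1.01 ± 0.06 in HDACi-Context and −0.65 ± 0.09 in Veh-Context (SD, n = 3 each). Drug and vehicle libraries did not overlap under either protocol in this difference. Set against strong promoters away from the TSS, the difference was −0.80 ± 0.01 in HDACi-CFC, −0.60 ± 0.04 in Veh-CFC libraries, −0.81 ± 0.04 in HDACi-Context and −0.60 ± 0.04 in Veh-Context, with drug and vehicle libraries apart and CFC and Context libraries overlapping.

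**Figure D5:**
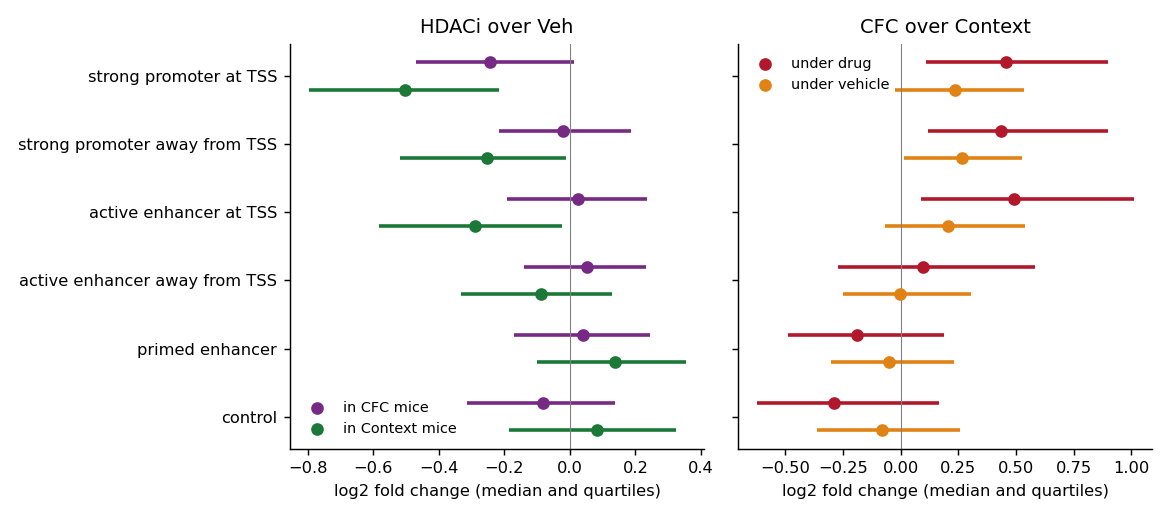
Median log2 fold change, with a line from the first to the third quartile, for 6 classes of peaks by deposited ChromHMM state and distance to the TSS. On the left the strong promoters at the TSS lie lowest, at −0.24 in CFC and −0.50 in Context mice; on the right, strong promoters at and away from the TSS lie close together, at 0.45 and 0.44 under the drug.

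The sequence before the TSS was read for 6413 distinct promoters of these peaks. Peaks were matched by gene symbol to RefSeq promoters, which covered 7267 (80.6%) of them. The median GC content was 60.0% and the median CpG observed over expected ratio 0.755. The background was all 32817 RefSeq promoters of the same length, which include these 6413. GC boxes stood in 59.9% of these promoters, against 32.7% of the background, and ETS cores in 15.5% against 6.90%. The cAMP response element core stood in 11.7% against 6.46%, the CCAAT box in 37.0% against 33.8%, the E-box CACGTG in 8.79% against 6.02%, and the TATA box TATAAA in 5.52% against 12.4%. The AP-1 site TGACTCA was the other motif below the background, in 2.40% against 4.46%.

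Peaks at promoters with an ETS core had the lower median change with the drug, given as a description with no test. In CFC mice the median was −0.37 at 1159 peaks with the core and −0.22 at 6094 without, and 68 and 233 fell. In Context mice it was −0.59 with and −0.48 without, and 482 and 1771 fell. Lonp2, with 3 such cores in the sequence printed above, is one of them, whereas Wdr75, Armcx1 and Ruvbl2 had none there and fell as far. For the GC box the medians with and without it differed less, at −0.24 and −0.27 in CFC mice. Shock under vehicle had medians of 0.26 with and 0.21 without a GC box, and 0.21 with and 0.25 without an ETS core. By GC content, the drug effect in CFC mice was −0.29 in the lowest quartile and −0.17 in the highest, and the shock effect under vehicle 0.13 and 0.30.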

How the data were processed

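H3K27ac ChIP-seq was measured in 12 libraries. The authors deposited whole-number read counts for 144154 peaks on mm10, with the lowest count 1 in every column. Tools listed in the submitters' processing notes, without roles or settings, are HOMER 4.11, DESeq2 1.28.1, DiffBind 2.16.2, MACS2, Bowtie2 2.3.5, SAMtools 1.9 and Trimmomatic 0.38. Column names give no antibody, and the single column of each group and replicate was taken as its H3K27ac library. Per the file headers, each peak has a width, a distance to a TSS, an annotation, a ChromHMM state and a percent for that state; the deposited percent was not used. For 95.5% of the 7267 strong-promoter peaks matched to RefSeq, the distance equals that from the peak's centre to the TSS within 2 bp. This check used the gene's TSS nearest to the one that the distance implies, and other peaks were not checked. Upstream, spanning and downstream were therefore set from the centre and the width. Input libraries were not analysed here.

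Counts were tested with edgeR 4.0.16 in R 4.3.3 (TMM, filterByExpr with a minimum count of 10, robust quasi-likelihood fit, 1 term per group, all 12 libraries), with adjustment over 144014 peaks. CPM are scaled by TMM, and log2 CPM has a prior count of 2. Ratios of flanks were fitted with limma 3.58.1. Alternatives were library totals, TMM from other peaks or from these promoters, loess offsets, DESeq2 1.42.0, no filter, a replicate block and each library left out. Both fits were tested on simulated data. Totals of 6639158 to 16734757 counts per library limit precision at narrow peaks. Correlations between the deviations of same-numbered replicates ran from −0.280 to 0.351, with 2 of 18 over 0.1. Both of these were between Veh-CFC and HDACi-Context, 0.351 at replicate 1 and 0.227 at replicate 3. With 3 libraries a group they cannot settle whether the numbers pair the libraries. No 2 libraries were alike, with at most 4.76% equal counts.

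Named promoters were those past the threshold with at least 5 CPM, the 6 largest changes each way with non-overlapping libraries (no such rule for the interaction), and the 6 highest levels per kb at 500 bp or wider. A listed gene was represented by its peak of highest mean CPM. Promoter sequences are RefSeq's on GRCm38.p6. The peaks, lists and tests were chosen with earlier results of these data known.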

Additional observations from a re-analysis of the deposited data

Results flagged for a closer look

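At 5 promoters the drug effect in CFC mice differed from that in Context mice by edgeR's interaction test with Benjamini-Hochberg adjustment. They are 0.0556% of the promoters tested, against 0.034% of all peaks with a positive interaction. The difference, CFC minus Context on the log2 scale, was 1.95 at Nr4a2, 1.46 at D11Wsu47e, 1.32 at Naa38, 1.15 at Nat14 and 1.13 at Speg. At each of them the drug effect in Context mice was a drop, from −1.03 at Speg to −1.67 at D11Wsu47e, and the drug effect in CFC mice did not pass, from −0.32 at Nat14 to 0.33 at Nr4a2. Over 19 alternative settings the call was lost in 12 for Nr4a2, 12 for Speg, 11 for Nat14 and 2 for Naa38, with none reversed. The alternatives were not run by name for D11Wsu47e, which lay below 5 CPM.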

How the results depend on the processing

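TMM factors taken from these promoters set their centre near 0 by construction. They moved the median of all peaks to 0.24 (drug in CFC), 0.49 (drug in Context), −0.24 (shock under vehicle) and −0.53 (shock under the drug), and library totals moved the last to −0.18. Under these factors higher and lower counts were 169 and 119 for the drug in CFC, 622 and 818 for the drug in Context, 465 and 345 for shock under vehicle, 1712 and 1414 for shock under the drug, and 0 higher for the interaction. The median promoter change then reversed to 0.0097 for the drug in CFC and −0.0267 for shock under the drug. DESeq2 gave 0 and 195 for the drug in CFC, 2 higher for the drug in Context, 502 and 13 for shock under vehicle, 26 lower for shock under the drug and 13 higher for the interaction. Library totals gave 13 higher for the drug in Context, 65 and 242 lower for shock under vehicle and under the drug, and 1 for the interaction; loess offsets gave 64 lower for shock under the drug and 1 for the interaction. The cause of these differences was not tested.

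With each library left out in turn, higher and lower counts ran from 0 to 29 and 62 to 492 (drug in CFC), 1 to 13 and 1418 to 3048 (drug in Context), 139 to 1290 and 3 to 64 (shock under vehicle), 2993 to 3942 and 25 to 146 (shock under the drug) and 0 to 337 and 0 to 2 (interaction). Pairs with a higher flank ratio ran from 1 to 83 under vehicle and 87 to 190 under the drug, and each median promoter change kept its sign. Fitting replicate number as a block gave 11 higher for the interaction and moved no other count by over 1.5 times; among named promoters it ended the calls of Brd2 and Ppp2r2c with shock under vehicle and of Ppp2r2c and Pgs1 with the drug in Context. Of 46 named results 23 kept their call under 19 of 19 alternatives, and 0 reversed under any. Depth limits narrow peaks, where a few reads per library set the value.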
